A study of Mus musculus with 64 samples.

Results

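The 9 genes described here belong to the type 1 helper (Th1) programme of CD4 T cells: the cytokine gene Ifng, the chemokine receptor gene Cxcr3, the receptor genes Il12rb1, Il12rb2, Il18r1 and Il18rap, and the transcription factor genes Stat4, Tbx21 and Eomes. They were taken by gene name from the 55809 genes counted in each of 64 bulk RNA-seq libraries of mouse regulatory T (Treg) cells, and all 9 were found. Of the 55809 genes, 51335 had at least 1 count in some library. The study took the transcription factor Foxp3 away from Treg cells, or switched it on in cells that lacked it, and measured which genes then changed. The libraries fell into 28 groups.

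The degron groups came from mice whose Foxp3 allele encodes Foxp3 fused to an auxin-inducible degron (Foxp3-AID), together with the reporter ZsGreen and Cre recombinase. Their ROSA26 locus was wild-type (WT) or carried TIR1(F74G), a plant ligase subunit that sends the fusion protein to degradation when the compound 5-ph-IAA is given. TIR1 sits behind a STOP cassette that Cre removes, so it is made only in cells that have used the Foxp3 locus. All degron mice, controls included, received 5-ph-IAA for 7 days. Adult heterozygous females gave 3 WT and 3 TIR1 libraries of nascent CD73-negative thymic Treg cells, and 3 and 3 of active Treg cells from spleen and lymph nodes. Such females also hold Treg cells with the intact allele. Infant mice gave 4 and 4 libraries of Treg cells from spleen and lymph nodes, not split by activation. The study describes its infant degron mice as hemizygous males, with Foxp3-AID on their only X chromosome, treated from the first day after birth. Such males hold no Treg cells with an intact allele, and the study reports severe autoimmune disease in infants under longer degradation. The reversible-allele groups carried Foxp3-LSL, in which a removable Thy1.1 reporter and STOP cassette precede a Foxp3 joined to GFP, so that cells that switch the locus on, called Treg wannabe cells, make no Foxp3. Mice with CD4-CreERT2 (plusFoxp3) and mice without it (minusFoxp3) received 4-hydroxytamoxifen (4-OHT), which lets CreERT2 excise the cassette in CD4-expressing cells. The study describes these mice as heterozygous females, which also hold Treg cells with an intact Foxp3 allele. Resting and active cells from spleen and lymph nodes were taken at day 0 without treatment and at days 3, 7, 14 and 28, with 2 libraries in each group. On days 3 to 28 the study sorted plusFoxp3 cells as GFP-positive and minusFoxp3 cells as GFP-negative and Thy1.1-positive. These groups thus differed in sort gate as well as in CreERT2. The study does not describe the gate of plusFoxp3 cells at day 0. Resting and active GFP Treg cells of untreated Foxp3GFP mice, whose Foxp3 was never interrupted, gave 2 libraries each.

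Interleukin-12 binds a receptor made of the chains encoded by Il12rb1 and Il12rb2 and activates STAT4. The transcription factor T-bet, encoded by Tbx21, then drives the Th1 programme, in which interferon-gamma and the chemokine receptor CXCR3 are well-known products. Interleukin-18 binds the chain encoded by Il18r1, needs the accessory chain encoded by Il18rap to signal, and raises interferon-gamma output together with interleukin-12. Il12rb1 is shared with the interleukin-23 receptor, whose second chain is Il23r. Eomes encodes a T-box factor related to T-bet that is best known from CD8 T cells and NK cells. In Treg cells, T-bet and CXCR3 are known from a subset that gathers at sites of Th1 inflammation.

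In GRCm39 coordinates of the counted gene models, Ifng lies at chr10:118276951-118281797 on the plus strand, and Cxcr3 at chrX:100775141-100777875 on the minus strand, on the same chromosome as Foxp3. Il12rb1 lies at chr8:71261093-71274068 on the plus strand and Il12rb2 at chr6:67268302-67353172 on the minus strand. Il18r1 at chr1:40504712-40540014 and Il18rap at chr1:40554522-40590865 are neighbours on the plus strand, 14507 bases apart. Stat4 lies on the same chromosome and strand at chr1:52026307-52146348. Tbx21 lies at chr11:96988897-97006157 on the minus strand and Eomes at chr9:118307280-118315200 on the plus strand. Counts of 4 members are uncertain where gene models share exons. Of the 3794 exon bases of Il12rb2, 1519 are shared with the antisense gene Serbp1, which is far more abundant, and Eomes shares 118 of 4155 with the antisense gene Gm33460. Reads were counted without regard to strand, so reads of these antisense pairs cannot be told apart there. Stat4 shares 1033 of 3872 exon bases with Gm28177, and Ifng 336 of 1295 with Gm49751, both on the same strand as the member.

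The RefSeq promoter table (GRCm38.p6) held an entry for 8 of the 9 members, Il12rb1 being the one without. The 250 bases before each start were searched on both strands for a forkhead core (TGTTTA), a T-box core (GGTGTG) and a STAT element (TTCNNNGAA). Over all 32851 windows of this length in the table, 12% held the forkhead core, 16.3% the T-box core and 7.02% the STAT element. Cxcr3 held 1 forkhead core, 200 bases before the start. Il12rb2 held 1 forkhead core at 187 bases and 1 STAT element at 123 bases, and Ifng held 1 STAT element at 249 bases. Il18r1 has 3 entries: the most upstream held none of the motifs, another held a T-box core at 12 bases, and the most downstream held STAT elements at 219 and 152 bases. Tbx21, Eomes, Il18rap and Stat4 held none. A match is a stretch of letters and not a measured binding site. The stretches upstream of Cxcr3, the member that rose most often, and of Il18r1, the member that fell most often, are shown, read 5′ to 3′ on the strand of the gene, with the forkhead core in capitals. The Cxcr3 stretch is chrX:100777876-100778003 of GRCm39 on the minus strand, the 128 bases of the window outside the counted gene, and the Il18r1 stretch is the 250 bases of chr1:40504462-40504711 on the plus strand.
Cxcr3: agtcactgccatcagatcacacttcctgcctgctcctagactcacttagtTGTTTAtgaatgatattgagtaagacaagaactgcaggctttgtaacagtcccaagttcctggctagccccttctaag
Il18r1: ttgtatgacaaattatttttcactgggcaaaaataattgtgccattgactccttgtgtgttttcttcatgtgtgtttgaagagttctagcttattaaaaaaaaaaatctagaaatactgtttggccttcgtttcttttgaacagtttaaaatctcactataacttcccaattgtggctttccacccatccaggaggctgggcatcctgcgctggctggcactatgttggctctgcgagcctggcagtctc

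Library totals were 27753211 to 34029692 counts in the adult degron libraries, 33704114 to 55801009 in the infants and 35097257 to 57419138 in the reversible-allele libraries. Values are given as CPM, read counts scaled to the library total. Foxp3 itself was 44.3 to 65.3 CPM in active minusFoxp3 cells, 50.7 and 55.6 in active plusFoxp3 cells at day 0, and 426 to 594 from day 3 on, against 734 and 817 in active GFP Treg cells. Resting cells followed their labels likewise, with 47.3 to 81.5 CPM in minusFoxp3 cells, 448 to 615 in plusFoxp3 cells from day 3 on, and 636 and 657 in GFP Treg cells. Labels conflicted in both degron experiments: the adult degron count files carry library names of the other genotype than the samples they are attached to, and the infant titles and genotype fields disagree. The adult libraries are named here by the name inside the file, and the infant groups are called titled TIR1 and titled WT, so the direction of each degron difference depends on these names. Degradation acts on the protein, but the study lists Foxp3 itself among the genes lowered by it. The fall of its reporter was slight, in resting Treg cells, so Foxp3 RNA is a weak check of these names. It was 76.7 to 93.4 CPM in active TIR1 libraries and 99.95 to 127 in active WT libraries (not called), and the groups overlapped in the thymus (144 to 168 and 144 to 181) and in infants (321 to 373 titled TIR1 and 297 to 424 titled WT). The 6 Treg identity markers, Foxp3 among them, summed to 2490 to 2820 CPM in active TIR1 and 2920 to 3090 in active WT libraries. In the thymus these sums were 3400 to 3830 and 4210 to 4520, and in infants 2050 to 2290 titled TIR1 and 1770 to 2380 titled WT. The resting plusFoxp3 library 1 of day 0 stood apart from the other resting libraries for Stat4 (48.9 CPM against 83.9 to 107) and, among day 0 libraries, for Il18r1. CD4 T cell markers (5 genes) summed to at least 3810 CPM in every library, while CD8 T cell markers (2 genes) summed to at most 63.4 CPM.

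Differences were tested with edgeR's quasi-likelihood test over all genes, and a gene is called changed at a Benjamini-Hochberg adjusted p below 0.05. DESeq2 served as a second test. Unless DESeq2 is named with it, a share of all genes is edgeR's, and DESeq2's own share can differ. Most DESeq2 counts of members are therefore not set against their own share. Fold changes are on the log2 scale with their SE. The study calls the libraries of a group biological replicates, but the labels do not tie them to animals, so p-values measure the spread between libraries. Thymic and active libraries of the adult degron mice carry matching leading numbers in their library names, which may mark the same mouse. Neither tissues nor states were paired in the fits. In bulk RNA, a lower level can come from fewer cells of a type or from less RNA per cell, and these cannot be told apart.

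Levels per kilobase of exon ordered the members differently in the activation states. In resting minusFoxp3 cells at day 0, Stat4 led with 22.2 CPM per kb, followed by Il18r1 with 12.7 and Il12rb1 with 4.16, and Il12rb2 was lowest with 0.0795. In active minusFoxp3 cells of the same day, Il18r1 led with 42.5 CPM per kb, ahead of Stat4 with 29.6, Il12rb1 with 27.3, Ifng with 15.6 and Cxcr3 with 11.1, and Eomes was lowest with 0.0333. Between them, 6 of 9 members were called, against 13.4% of all 20790 genes tested. Il18rap was higher in active cells by 4.66 ± 0.74 (35.5 and 42.6 CPM against 0.598 and 2.48, adjusted p = 5.11e-05), and Ifng by 3.82 ± 0.74 (26.1 and 14.3 CPM against 1.03 and 1.81, adjusted p = 5.67e-04). Il12rb1 was higher by 2.71 ± 0.28 (97.3 and 127 CPM against 15.2 and 18.9, adjusted p = 8.61e-08), and Il18r1 by 1.74 ± 0.34 (192 and 218 CPM against 62.0 and 60.2, adjusted p = 5.11e-04). Cxcr3 was higher by 1.90 ± 0.64 (adjusted p = 0.0453), a call lost without any 1 of the 4 libraries (adjusted p from 0.0636 to 0.219). Eomes alone was lower in active cells, by −3.38 ± 0.78 (0.0677 and 0.209 CPM against 1.63 and 1.36, adjusted p = 0.00296), a call lost without active minusFoxp3 library 1 of day 0 (adjusted p = 0.0627).

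In GFP Treg cells the same contrast of states called 3 of 9 members, against 3.12% of all genes. Tbx21 was higher in active cells by 2.47 ± 0.62 (46.9 and 15.2 CPM against 7.40 and 3.64, adjusted p = 0.0231) and Il12rb1 by 1.16 ± 0.26 (128 and 124 CPM against 61.9 and 48.9, adjusted p = 0.0104), while Eomes was lower by −2.57 ± 0.70 (adjusted p = 0.0404). These calls were lost without most single libraries: Tbx21 without resting library 1 or 2 or active library 1 (adjusted p from 0.0659 to 0.536), Il12rb1 without resting library 2 or active library 1 (0.197 and 0.1), and Eomes without any 1 of the 4 (0.059 to 0.362). With only these 4 libraries in the fit, Tbx21 and Eomes lost their calls (0.102 and 0.0912), while Il12rb1 kept its call and Il18rap gained one, against 2.42% of all genes. Between thymic and active Treg cells of the WT degron mice, 6 of 9 members were called, against 23% of all 14769 genes. Cxcr3 had no count in the 3 thymic WT libraries and 138 to 236 CPM in the 3 active ones, at least 1756-fold higher when the thymic group is set to a floor of 3 counts per library (0.103 CPM). Ifng, also without a count in the thymic WT libraries, was at least 54.6-fold higher, at 2.91 to 9.33 CPM. Il18r1 was higher in active cells by 2.93 ± 0.32 (adjusted p = 3.22e-05), Il12rb1 by 5.21 ± 0.98 (0.00204) and Stat4 by 1.15 ± 0.16 (2.01e-04). All 6 calls held without any 1 of the libraries. Il18rap had at most 3 counts in each thymic WT library and 15.6 to 37.5 CPM in the active ones (adjusted p = 2.91e-04). Thymic Treg cells thus held Stat4 (46.2 to 64.2 CPM) and some Il18r1 (6.39 to 18.0 CPM) with little or no RNA for the other receptor genes. These libraries also differed in tissue and sort gate.

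The main question was what Foxp3 did to these genes once it was switched on. In active cells at day 28 after 4-OHT, 3 of 9 members were called, Cxcr3 and Tbx21 higher and Il18r1 lower in plusFoxp3 cells, against 1.85% of all 20776 genes. At day 7, 2 were called (Cxcr3 and Il12rb1, both higher), against 0.568%, and at day 14, 1 was called (Cxcr3), against 0.732%. At day 0, before treatment, edgeR called 0 of 9, against 0.00481% of all genes, and DESeq2 also called 0. None had an unadjusted p under 0.05 there, against 4.58% of all genes. At day 3 edgeR called 0 of 9, against 0.274%, with 4 at an unadjusted p under 0.05 (7.4% of all genes) and 0 called by DESeq2. The median log2 fold change of the 9 members at day 28 was 0.64, and that of all genes 0.03. With only the 4 libraries compared in the fit, edgeR called 0 members at day 7 (0.019% of all genes), 3 at day 14 (Cxcr3 higher, Ifng and Il18r1 lower, against 0.939%) and 0 at day 28 (0.929%).

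In resting cells, 1 of 9 members was called at day 28 (Il18r1, lower), against 0.945% of all 20520 genes. EdgeR called 0 of 9 at day 0 (0.00487% of all genes), day 3 (0.0487%), day 7 (0.0585%) and day 14 (0.268%). The numbers at an unadjusted p under 0.05 on those days were 0, 2, 4 and 4, against 10.8%, 11%, 5.71% and 8.87% of all genes. DESeq2 called 0, 1, 1 and 2 members, while the shares of all genes given here are edgeR's. Without resting plusFoxp3 library 2 of day 0, which leaves the library that stood apart as the only one of its group, Il18r1 (−1.20, adjusted p = 0.0228) and Stat4 (−0.84, 0.00465) were called lower, in a setting with 10.2% of all genes called. GFP Treg cells set against minusFoxp3 cells of day 0 gave 3 of 9 called in each state, against 2.91% of all genes in resting and 10% in active cells. In resting cells these were Cxcr3 and Il12rb1 (higher) and Il18r1 (lower), and in active cells Cxcr3 and Tbx21 (higher) and Il18r1 (lower). Markers of activated cells (Cd44, Icos, Klrg1, Itgae and Ccr6) also differed between these groups: they summed to 806 to 851 CPM in resting GFP Treg cells and 205 to 324 in resting minusFoxp3 cells of day 0, and to 1790 to 2260 and 1020 to 1390 in the active groups. At day 28 the sums were 385 to 779 CPM in resting plusFoxp3 and 257 to 326 in resting minusFoxp3 cells, and 1720 to 1930 and 951 to 1020 in active ones. Their part in the members' values was not tested. The day 0 minusFoxp3 libraries serve as controls in more than 1 comparison of their state, so those comparisons are not independent.

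**Figure D1:**
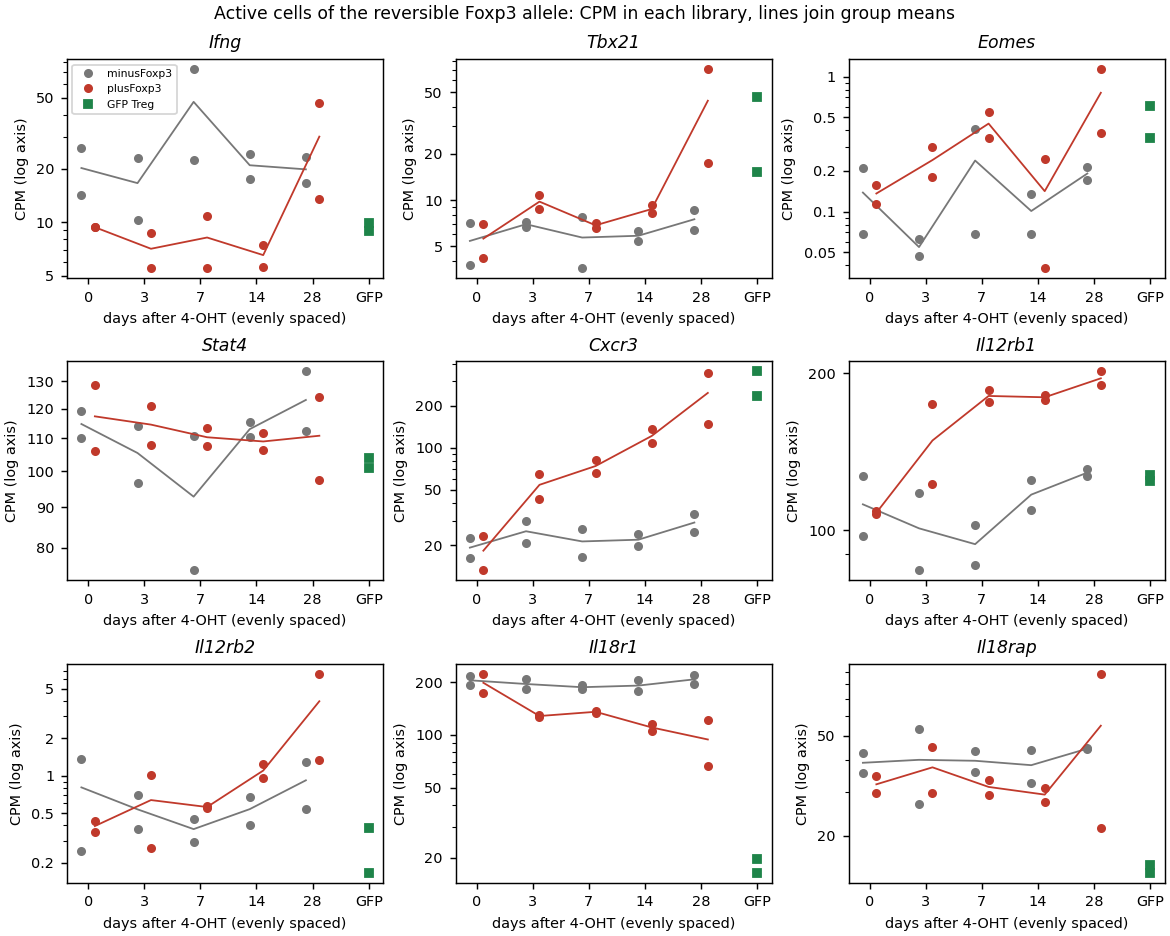
CPM on a log axis of each of the 9 members in every active library of the reversible-allele experiment, against days after 4-OHT (evenly spaced) and, at the right, in GFP Treg cells; points are libraries and lines join group means (minusFoxp3 in grey, plusFoxp3 in red, GFP Treg as green squares). Cxcr3 parted from day 3 on, from 43.1 CPM or more in plusFoxp3 cells against 33.4 or less in minusFoxp3 cells, and Il18r1 lay at 137 CPM or less against 178 or more.

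Cxcr3, the receptor for the interferon-induced chemokines, was the member that rose with Foxp3 in active cells. Over the 10 active minusFoxp3 libraries it ranged from 16.0 to 33.4 CPM with a median of 23.1. In plusFoxp3 cells it was 23.3 and 13.2 CPM at day 0, 65.2 and 43.1 at day 3, 81.4 and 66.4 at day 7, 136 and 107 at day 14, and 347 and 149 at day 28. GFP Treg cells held 353 and 236 CPM. From day 3 on the plusFoxp3 libraries did not overlap with any minusFoxp3 library, and the group means were ordered by day. The log2 fold change was 1.17 ± 0.38 at day 3 (adjusted p = 0.4), 1.85 ± 0.39 at day 7 (0.0413), 2.48 ± 0.40 at day 14 (0.00459) and 3.12 ± 0.41 at day 28 (3.95e-04), an 8.66-fold difference at day 28. The effect at day 28 minus that at day 3 was 1.95 ± 0.54 and was not called (adjusted p = 0.26). In that comparison edgeR called 0 of 9 members, against 0.0915% of all genes, and DESeq2 called 1 (Cxcr3). Ifng, Tbx21 and Cxcr3 had an unadjusted p under 0.05, against 6.66% of all genes. GFP Treg cells exceeded minusFoxp3 cells of day 0 by 3.97 ± 0.42 (adjusted p = 7.99e-06), and did not part from plusFoxp3 cells of day 28, with a difference of 0.25 and a 95% interval of −0.48 to 0.98. The day 28 and GFP calls held without any 1 of their libraries (highest adjusted p 0.0194 and 6.01e-04). The day 14 call was lost without minusFoxp3 library 1 or 2 (adjusted p = 0.0684 and 0.0876), and the day 7 call without minusFoxp3 library 1 or plusFoxp3 library 1 or 2 (0.11 to 0.3). When only the libraries of a comparison were fitted, the day 28 difference stayed at 3.11 with an adjusted p of 0.06.

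In resting cells Cxcr3 was lower at the outset, at 1.04 to 14.0 CPM over the 10 minusFoxp3 libraries. PlusFoxp3 cells held 5.79 and 15.5 CPM at day 0, 17.0 and 18.6 at day 3, 41.0 and 19.2 at day 7, 37.1 and 26.7 at day 14, and 108 and 43.8 at day 28. GFP Treg cells held 121 and 71.9 CPM. All plusFoxp3 libraries from day 3 on lay above all minusFoxp3 libraries here too. The day 28 difference, 2.71 ± 0.75, was not called by edgeR (adjusted p = 0.137) and was called by DESeq2. GFP Treg cells exceeded minusFoxp3 cells of day 0 by 4.25 ± 0.81 (adjusted p = 0.00678), a call lost without minusFoxp3 library 1 or 2 (0.0675 and 0.0812). The effect in active cells minus that in resting cells at day 28 was 0.40, with a 95% interval of −1.26 to 2.07. For that difference of states edgeR called 0 of 9 members, against 0.0818% of all genes, DESeq2 called 0 and none had an unadjusted p under 0.05.

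**Figure D2:**
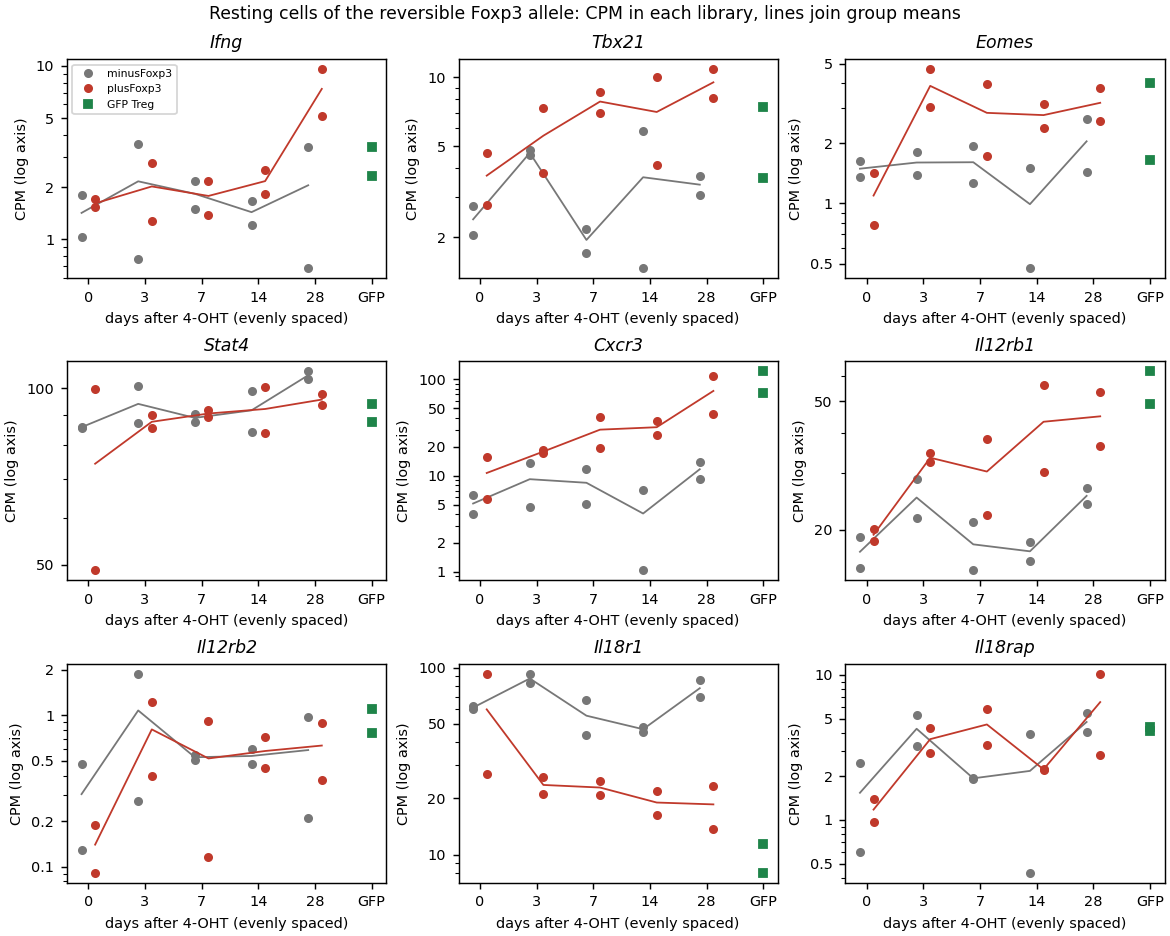
CPM on a log axis of the 9 members in every resting library of the reversible-allele experiment, against days after 4-OHT (evenly spaced) and in GFP Treg cells; points are libraries and lines join group means, with colours as for active cells. Il18r1 lay at 26.0 CPM or less in plusFoxp3 cells from day 3 on and at 43.6 or more in minusFoxp3 cells, and the plusFoxp3 libraries of day 0 lay apart at 27.0 and 92.5 CPM.

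Il18r1, the chain that binds interleukin-18, was the member that fell. In active cells it was 178 to 219 CPM over the 10 minusFoxp3 libraries. PlusFoxp3 cells held 173 and 223 CPM at day 0, 130 and 126 at day 3, 134 and 137 at day 7, 115 and 106 at day 14, and 122 and 66.2 at day 28. GFP Treg cells held 16.4 and 19.7 CPM. The plusFoxp3 libraries from day 3 on lay below all minusFoxp3 libraries, but every one of them stayed at least 3 times above the higher GFP Treg library. At day 28 Il18r1 was lower by −1.13 ± 0.22 (adjusted p = 0.00971), a call lost without minusFoxp3 library 1 (0.127) or plusFoxp3 library 2 (−0.74, adjusted p = 0.102) and with only its own libraries fitted (0.197). GFP Treg cells lay lower than minusFoxp3 cells of day 0 by −3.48 ± 0.24 (adjusted p = 8.53e-08), an 11.2-fold difference. They also lay lower than plusFoxp3 cells of day 28 by −2.39 ± 0.23 (adjusted p = 1.27e-05), and both calls held without any 1 of their libraries. In that last comparison 3 of 9 members were called, all lower in GFP Treg cells (Il18r1, Il12rb2 and Il18rap), against 2.01% of all genes.

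Resting cells held less Il18r1, and its libraries parted from day 3 on. The 10 minusFoxp3 libraries ranged from 43.6 to 92.6 CPM. PlusFoxp3 cells held 21.2 and 26.0 CPM at day 3, 24.9 and 20.8 at day 7, 21.8 and 16.2 at day 14, and 23.4 and 13.7 at day 28, and GFP Treg cells 8.00 and 11.4. The 8 plusFoxp3 libraries lay below the 10 minusFoxp3 libraries and above both GFP Treg libraries. The log2 fold change was −1.82 ± 0.40 at day 3 (adjusted p = 0.137, called by DESeq2) and −2.05 ± 0.41 at day 28 (0.0224). The day 28 call was lost without any 1 of its 4 libraries (adjusted p from 0.0708 to 0.195) and with only its own libraries fitted (0.0656). Against minusFoxp3 cells of day 0, GFP Treg cells were lower by −2.64 ± 0.42 (adjusted p = 0.00161), which held without any 1 library (highest 0.0399). GFP Treg cells against plusFoxp3 cells of day 28 gave −0.93 ± 0.40 (adjusted p = 1), and there edgeR called 0 of 9 members, against 0.0341% of all genes, with 1 at an unadjusted p under 0.05 and 0 called by DESeq2.

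Its neighbour Il18rap, the accessory chain, was called in no plusFoxp3 comparison. In active minusFoxp3 cells it was 26.8 to 53.5 CPM, and in plusFoxp3 cells from day 3 to day 14 it was 27.3 to 45.3 CPM. At day 28 the plusFoxp3 libraries held 88.2 and 21.5 CPM, on either side of the minusFoxp3 pair (44.3 and 44.6), and the difference was 0.32 ± 0.45 (adjusted p = 0.907). GFP Treg cells held 15.3 and 14.3 CPM, lower than every other active library of the reversible-allele experiment. Against plusFoxp3 cells of day 28 this was −1.90 ± 0.46 (adjusted p = 0.0437), which without plusFoxp3 library 1 became −0.53 (0.921) and was also lost without GFP Treg library 1 or 2 (0.282 and 0.215) with only the libraries compared in the fit (0.278) and with the replicate numbers as a block (0.0553). Resting libraries held at most 10.2 CPM of Il18rap. Without plusFoxp3 library 1 of day 28, Il18r1 in active cells was lower by −1.65 ± 0.20 (adjusted p = 5.25e-04) and Il18rap by −1.05 ± 0.37 (0.257).

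Il12rb1, shared by the interleukin-12 and interleukin-23 receptors, rose modestly. In active minusFoxp3 cells it was 83.7 to 131 CPM. PlusFoxp3 cells held 107 and 109 CPM at day 0, 123 and 174 at day 3, 176 and 186 at day 7, 178 and 182 at day 14, and 202 and 190 at day 28. The 6 libraries from day 7 on lay above all active minusFoxp3 libraries. The difference was called at day 7 alone (0.98 ± 0.20, adjusted p = 0.0313), while day 28 gave 0.61 ± 0.20 (0.163). The day 7 call was lost without minusFoxp3 library 1 or plusFoxp3 library 1 or 2 (adjusted p from 0.166 to 0.295). Active GFP Treg cells held 128 and 124 CPM, within the range of the minusFoxp3 libraries and below the plusFoxp3 libraries of days 7 to 28.

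In resting cells Il12rb1 was 15.0 to 28.6 CPM without Foxp3, 22.2 to 56.3 in plusFoxp3 cells from day 3 on, and 61.9 and 48.9 in GFP Treg cells. The GFP Treg difference from minusFoxp3 cells of day 0 was 1.71 ± 0.31 (adjusted p = 0.00478), a 3.28-fold difference, lost without minusFoxp3 library 1 (0.0844) or GFP Treg library 1 (0.0531). The same contrast in active cells gave 0.19 ± 0.20 (adjusted p = 0.692). The difference between these differences, active minus resting, was −1.55 ± 0.37 (adjusted p = 0.0187), and Il12rb1 was the 1 member of 9 called there, against 2.43% of all genes. That call was lost without active minusFoxp3 library 2, resting minusFoxp3 library 1, resting GFP library 1 or either active GFP library (adjusted p from 0.0683 to 0.114), and with only the libraries compared in the fit (0.0507).

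Il12rb2, the chain that completes the interleukin-12 receptor, was scarce throughout. It ranged from 0.248 to 1.37 CPM in active minusFoxp3 cells and from 0.129 to 1.88 in resting ones. Active plusFoxp3 cells of day 28 held 6.61 and 1.34 CPM, and active GFP Treg cells 0.380 and 0.166. The GFP Treg difference from day 28, −3.85 ± 0.90 (adjusted p = 0.0334), was smaller without that high library, plusFoxp3 library 1 (−2.27, 0.539), and it was also lost without GFP Treg library 1 or 2 (0.184 and 0.237) and with only the libraries compared in the fit (0.153). The day 28 Foxp3 difference was 2.14 ± 0.82 (adjusted p = 0.293).

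**Figure D3:**
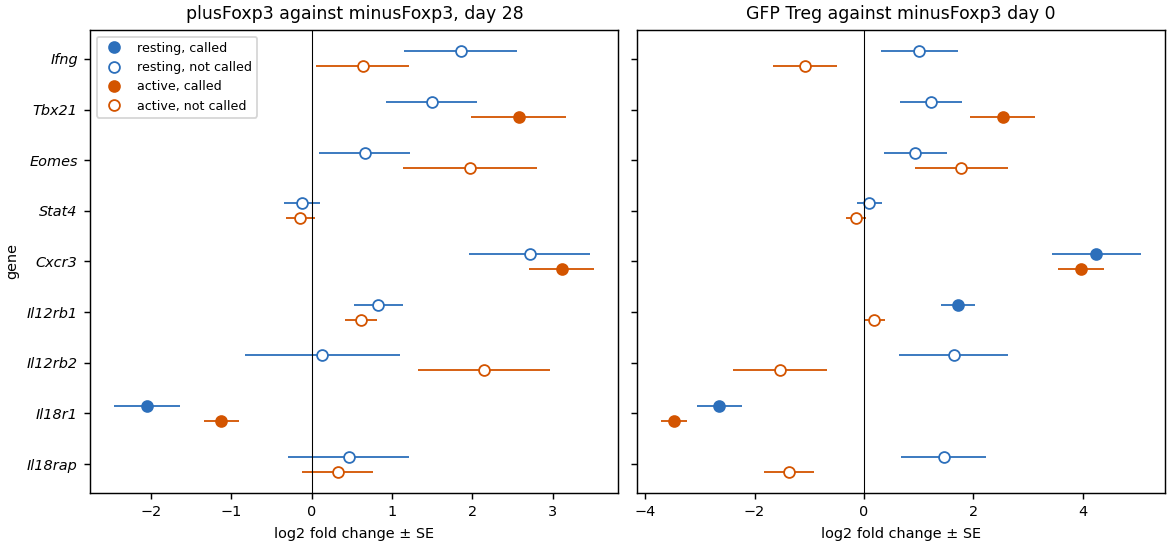
Log2 fold change with SE of the 9 members, plusFoxp3 against minusFoxp3 cells at day 28 (left) and GFP Treg against minusFoxp3 cells of day 0 (right), resting in blue and active in orange; filled points passed an adjusted p below 0.05. Cxcr3 lay between 2.71 and 4.25 in the 4 comparisons and Il18r1 between −3.48 and −1.13, while Stat4 stayed within −0.14 and 0.10.

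Tbx21, which encodes T-bet, was low in active minusFoxp3 cells, at 3.62 to 8.62 CPM, and was 6.62 to 10.7 CPM in plusFoxp3 cells from day 3 to day 14. At day 28 the plusFoxp3 libraries held 70.8 and 17.4 CPM and the minusFoxp3 libraries 6.38 and 8.62. GFP Treg cells held 46.9 and 15.2 CPM. In both of these groups 1 library was 3 or more times the other. At day 28 Tbx21 was higher by 2.58 ± 0.59 (adjusted p = 0.031), which without plusFoxp3 library 1 became 1.22 ± 0.54 (0.457), and which was also lost without minusFoxp3 library 1 or 2 (0.378 and 0.168). GFP Treg cells were higher than minusFoxp3 cells of day 0 by 2.54 ± 0.59 (adjusted p = 0.00981), a call lost without minusFoxp3 library 1 (0.146) or GFP Treg library 1 (0.212) and with only the 4 libraries compared in the fit (0.0597), where Il18rap was called in its place (3 of 9 members, against 7.29% of all genes). Plus library 1 of day 28 was also the higher of its pair for Cxcr3, Ifng (47.0 and 13.6 CPM), Il12rb2, Il18r1 and Il18rap. Its summed NK cell and ILC1 markers were 8.37 CPM against 14.7 in library 2. In resting cells Tbx21 was 1.47 to 5.84 CPM without Foxp3 and 3.81 to 10.8 in plusFoxp3 cells from day 3 on, and edgeR called it in no resting Foxp3 comparison. DESeq2 called it at day 7 (0.716% of all genes called), where edgeR gave 1.99 ± 0.58 (adjusted p = 0.395), and edgeR without a count filter called it at days 7 and 28.

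Eomes, the other T-box gene, was close to the detection limit in active cells, at 0.0468 to 0.409 CPM in minusFoxp3 cells, 0.0382 to 1.14 in plusFoxp3 cells from day 3 on, and 0.608 and 0.354 in GFP Treg cells. Several active libraries held 3 counts or fewer. In resting cells it was 0.475 to 2.66 CPM without Foxp3 and 1.73 to 4.71 in plusFoxp3 cells from day 3 on. No comparison within a state called it, and the day 28 differences were 1.97 ± 0.83 in active (adjusted p = 0.368) and 0.66 ± 0.57 in resting cells (0.845).

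Stat4, which carries the interleukin-12 signal, was close to level. It was 74.8 to 134 CPM in active minusFoxp3, 97.5 to 124 in active plusFoxp3 cells from day 3 on and 100.8 and 103.9 in active GFP Treg cells. Resting cells held 84.3 to 107, 83.9 to 100.4, and 94.1 and 87.5 CPM in the same order. The day 28 differences were −0.14 in active cells (95% interval −0.50 to 0.22) and −0.12 in resting cells (−0.56 to 0.32). These intervals are approximate and narrower than the test itself allows. No Foxp3 or GFP Treg comparison called Stat4.

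Ifng did not follow Cxcr3. In active minusFoxp3 cells it was 26.1 and 14.3 CPM at day 0, 10.3 and 22.9 at day 3, 72.6 and 22.4 at day 7, 24.3 and 17.5 at day 14, and 16.5 and 23.1 at day 28. PlusFoxp3 cells held 9.39 and 9.36 CPM at day 0, 8.65 and 5.53 at day 3, 10.9 and 5.54 at day 7, 7.45 and 5.62 at day 14, and 47.0 and 13.6 at day 28. The plusFoxp3 libraries lay below the minusFoxp3 pair of their day from day 0 to day 14, so the gap was there before treatment. The day 0 difference was −1.09 ± 0.59 (adjusted p = 0.999) and the largest, at day 7, −2.48 ± 0.61 (0.0877). DESeq2 called the day 7 difference, as edgeR did without minusFoxp3 library 2 of that day. At day 28 the difference was 0.64 ± 0.58, and −0.54 ± 0.63 without plusFoxp3 library 1, neither of them called. Active GFP Treg cells held 8.89 and 9.92 CPM, and resting libraries at most 9.60. At day 28 resting plusFoxp3 cells held 9.60 and 5.15 CPM against 0.684 and 3.42 (1.85 ± 0.70, adjusted p = 0.38).

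Markers of NK cells and ILC1, which make much interferon-gamma, were unequal between the active groups. The 8 markers (Ncr1, Klrb1c, Klre1, Klra8, Klrc2, Gzma, Tyrobp and Fcer1g) summed to 4.02 to 59.1 CPM in active minusFoxp3 libraries, 1.85 to 14.7 in active plusFoxp3 libraries, and 7.56 and 18.6 in active GFP Treg libraries. On each day 1 minusFoxp3 library stood higher, with 41.9 CPM at day 0, 21.3 at day 3, 59.1 at day 7, 29.9 at day 14 and 41.3 at day 28, while the other library of the pair held 4.02 to 6.85 CPM. Klra8 was at 0 in both groups of day 28. The library with the highest Ifng, minusFoxp3 library 1 of day 7, was not one of these. Of each minusFoxp3 pair, the library with the higher marker sum held less Ifng at days 0, 3, 7 and 14, and more at day 28. Without these 5 libraries, a choice made after seeing the data, the members called at day 28 were Cxcr3 (3.32, adjusted p = 0.0129) and Il18r1 (−1.24, 0.0497), while Tbx21 lost its call (2.77, 0.162). At day 7 Il12rb1 and Ifng (lower) were called, with 13.4% of all genes called in that setting. At day 14 Cxcr3 lost its call (2.35, adjusted p = 0.0874). The part of such cells in the Ifng values was not tested.

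MinusFoxp3 cells of day 28 were also set against those of day 0, to see whether the members moved without Foxp3. EdgeR called 0 of 9 members in active and 0 of 9 in resting cells, with 0% of all genes called in both, none with an unadjusted p under 0.05, and 0 called by DESeq2. The resting estimates were all positive, from 0.29 (Stat4) to 1.60 (Il18rap), with Cxcr3 at 1.18 (95% interval −0.25 to 2.61). In active cells they ran from −0.02 (Ifng) to 0.60 (Cxcr3). A shift in the resting minusFoxp3 cells may thus be present though it was not called. The Foxp3 effect at day 28 minus that at day 3 in resting cells likewise gave 0 of 9 members and 0% of all genes by edgeR, none with an unadjusted p under 0.05, and 0 by DESeq2.

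Foxp3 degradation for 7 days in adults called no member, and edgeR called no gene at all in thymic or in active cells. The study, using DESeq2, reports changed genes in both, with more in thymic than in active Treg cells. In simulated counts these fits recovered 26% of 2-fold changes in thymic and 17% in active libraries. A difference that was not called here may therefore still be present. In thymic Treg cells 7 members passed the count filter and edgeR called 0, against 0% of all 14245 genes, and DESeq2 called 0. An unadjusted p under 0.05 was reached by 2, against 7.37% of all genes. These were Il18r1, at 25.9 to 26.3 CPM in TIR1 and 6.39 to 18.0 in WT libraries (0.95 ± 0.37, adjusted p = 0.655), and Eomes, at 2.32 to 3.32 and 4.65 to 10.2 CPM (−1.26 ± 0.49, 0.654). Cxcr3 was counted in 1 of the 6 thymic libraries (2.32 CPM, TIR1), as was Ifng (1.08 CPM, TIR1). In active Treg cells edgeR called 0 of 9, against 0% of all 14554 genes, with 2 at an unadjusted p under 0.05 (4.62% of all genes) and 0 called by DESeq2. Il12rb1 was 83.9, 52.0 and 65.2 CPM in TIR1 libraries and 78.5, 168 and 209 in WT libraries (−1.21 ± 0.34, adjusted p = 1), and Ifng 7.52, 15.3 and 19.2 against 9.33, 4.64 and 2.91 CPM (1.28 ± 0.53, adjusted p = 1). The groups overlapped for both genes. Cxcr3 was 188 to 256 CPM in TIR1 and 138 to 236 in WT libraries, with a difference of 0.23 and a 95% interval of −0.20 to 0.67. Stat4 gave 0.13 (−0.15 to 0.42) and Il18r1 0.10 (−0.28 to 0.48). The thymic effect minus the active effect called 0 of 9 members by edgeR, against 0% of all 14769 genes, and 0 by DESeq2. Cxcr3 alone had an unadjusted p under 0.05 there, against 6.66% of all genes.

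**Figure D4:**
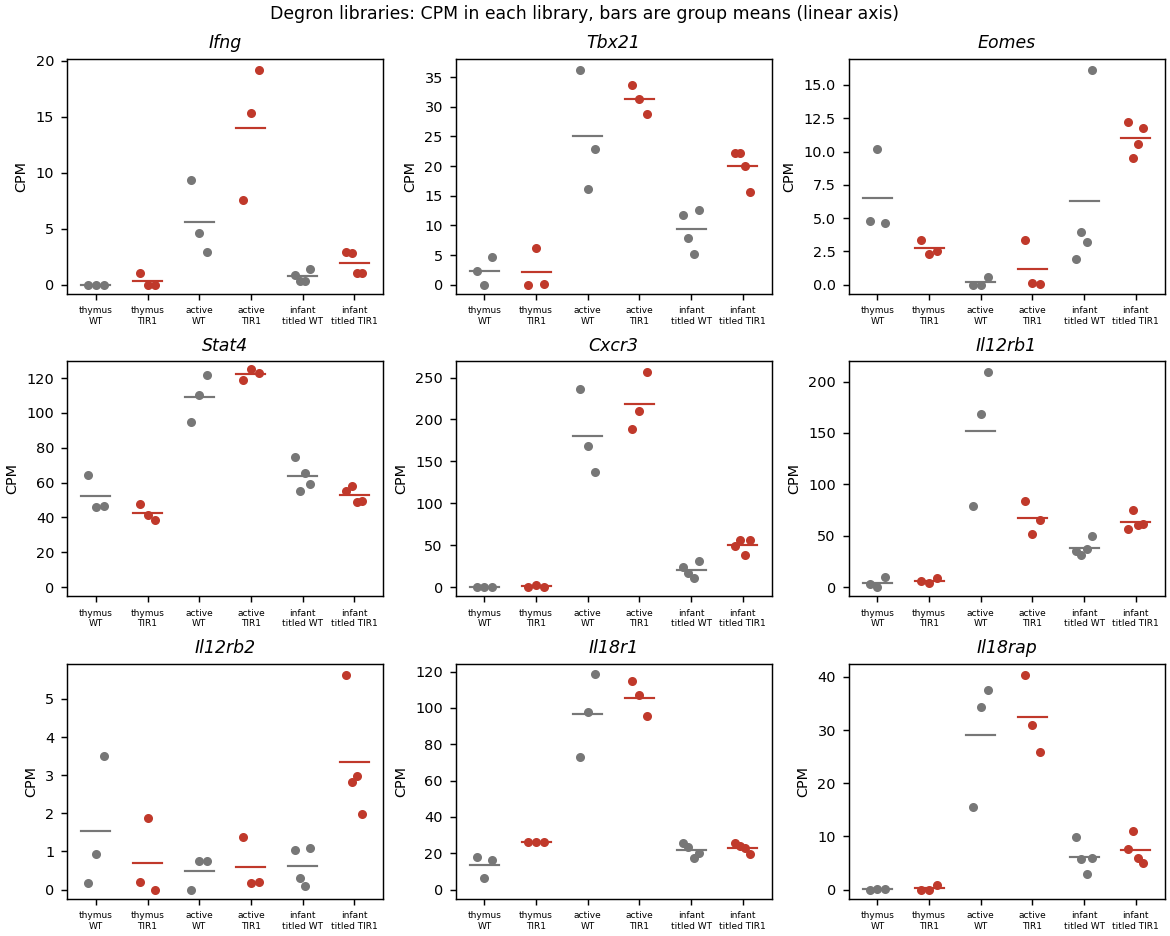
CPM of the 9 members on linear axes in each degron library, WT in grey and TIR1 in red, for thymic, active and infant Treg cells; points are libraries and bars group means. Cxcr3, Tbx21, Il12rb1 and Il12rb2 lay higher in all 4 infant libraries titled TIR1 than in the 4 titled WT, and thymic libraries held little Cxcr3, Ifng or Il18rap.

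Infant libraries differed by title for several members. Those titled TIR1 held 48.5, 56.7, 38.3 and 56.7 CPM of Cxcr3 and those titled WT 23.7, 16.4, 11.4 and 31.2. Tbx21 was 22.2, 22.3, 20.1 and 15.7 CPM against 11.7, 7.79, 5.14 and 12.6. Il12rb1 was 56.6 to 75.3 CPM against 31.1 to 49.4, and Il12rb2 1.99 to 5.64 against 0.0807 to 1.09. The groups did not overlap for these 4 genes, and for the other 5 they did. Of all 16209 genes tested, 8.73% did not overlap, 3.92% with the libraries titled TIR1 higher. With all 8 libraries edgeR called 0 of 9 members, against 0.0185% of all 16209 genes, with 6 at an unadjusted p under 0.05 (17.4% of all genes). DESeq2 called 4, the genes that did not overlap, against 6.84% of all genes. The log2 fold changes were 1.29 ± 0.28 for Cxcr3, 1.12 ± 0.25 for Tbx21 (both adjusted p = 0.0918), 0.75 ± 0.14 for Il12rb1 (0.0726) and 2.42 ± 0.64 for Il12rb2 (0.113).

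The library titled WT 4 stood apart. It held 16.1 CPM of Eomes, against 1.94 to 3.96 in the other libraries titled WT and 9.54 to 12.2 in those titled TIR1. Leaving out any other 1 infant library gave 0 of 9 members called. Without titled WT library 4 edgeR called 11% of all genes. Singling out this library was a choice made after seeing its values, Eomes among them. In that setting edgeR called 6 of 9 members, all higher in libraries titled TIR1. These were Cxcr3 (1.56 ± 0.22, adjusted p = 7.45e-04), Tbx21 (1.31 ± 0.24, 0.00449), Eomes (1.88 ± 0.24, 4.36e-04), Il12rb1 (0.91 ± 0.11, 3.82e-04), Il12rb2 (2.83 ± 0.64, 0.0134) and Ifng (1.91 ± 0.52, 0.0359). Il18r1 and Il18rap gave 0.08 ± 0.15 and 0.27 ± 0.36, and Stat4 −0.28 ± 0.11 (adjusted p = 0.134). The 5 markers of activated cells moved with these genes: they summed to 484 to 677 CPM in libraries titled TIR1 and 186 to 241 in 3 libraries titled WT, with 523 in library 4. The 8 NK cell and ILC1 markers summed to 3.31 to 7.79 CPM in libraries titled TIR1, 0.484 to 1.17 in 3 titled WT and 3.53 in library 4, with Ncr1, Klra8 and Klrc2 at 0 in all 8. The part of either in these values was not tested.

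The rest of the pathway was described by 49 genes in 5 lists: ligands and decoys of IL-12 and IL-18 (10 genes), signal transducers behind the receptors (9), the interferon-gamma receptor and its feedback (5), partner transcription factors (9), and effector products and surface molecules of Th1 cells (16). In active cells at day 28, 5 of the 45 tested were called higher and 1 lower in plusFoxp3 cells, against 1.85% of all genes called. Klrg1, a receptor of terminally differentiated T and NK cells, was 44.3 ± 35.1 CPM (SD, n = 2) against 0.430 ± 0.417 (6.73 ± 0.88, adjusted p = 3.95e-04). The chemokine gene Ccl5 was 37.3 ± 25.6 against 1.73 ± 0.05 CPM (4.44 ± 0.91, adjusted p = 0.0148), and the cytotoxic granule gene Nkg7 106 ± 112 against 6.02 ± 1.42 (4.16 ± 0.67, 0.00254). Zeb2, a repressor that T-bet is known to induce, was lower, at 8.68 ± 5.67 against 34.6 ± 3.18 CPM (−1.98 ± 0.43, adjusted p = 0.0215). The other genes called higher were Gzmb and Ebi3, chosen for naming after their values were seen. None of the 9 signal transducers was called in this comparison. The Klrg1 call held without any 1 library and was lost with only the 4 libraries compared in the fit (adjusted p = 0.0727), as were those of Nkg7 (0.23) and Zeb2 (0.163). Without the minusFoxp3 libraries with higher NK cell and ILC1 sums, Klrg1 kept its call (0.00494) and Nkg7 (0.0908), Ccl5 (0.0659) and Zeb2 (0.0591) lost theirs. The Nkg7 call was lost without minusFoxp3 library 2 (adjusted p = 0.0572), the Ccl5 call without either minusFoxp3 library or plusFoxp3 library 1 (0.0919 to 0.206), and the Zeb2 call without either minusFoxp3 library or plusFoxp3 library 2 (0.064 to 0.226). Runx3, a partner of T-bet, was 103 ± 26.7 against 100.5 ± 0.354 CPM, and Gzmk at most 0.758 CPM on average, and neither was called.

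In resting cells at day 28, 5 of 43 were called higher and 1 lower, against 0.945% of all genes called. Gzmb, the granzyme B gene, was 13.7 ± 13.6 CPM against 0.0665 ± 0.0693 (adjusted p = 0.0293), Ccr2, an inflammatory chemokine receptor gene, 72.6 ± 67.0 against 4.18 ± 3.14 (0.028) and Ccl5 4.73 ± 1.88 against 0.206 ± 0.031 (0.0252). Id2, an inhibitor of E proteins, was lower, at 102 ± 38.4 against 271 ± 6.77 CPM (−1.39 ± 0.23, adjusted p = 0.00758). The calls of Gzmb, Ccr2 and Ccl5 were lost without either minusFoxp3 library or plusFoxp3 library 1 (adjusted p from 0.128 to 0.369), and that of Id2 without either minusFoxp3 library or plusFoxp3 library 2 (0.0544 to 0.074). With only the 4 libraries compared in the fit, Gzmb (0.0895), Ccr2 (0.173) and Id2 (0.117) lost their calls. Ifngr1, the ligand-binding chain of the interferon-gamma receptor, was among the higher genes, at 366 ± 16.9 against 234 ± 20.2 CPM (0.66 ± 0.13, adjusted p = 0.025).

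GFP Treg cells set against minusFoxp3 cells of day 0 gave 11 of 43 higher and 1 lower in resting cells, and 9 of 45 higher and 7 lower in active cells. Of all genes, 2.91% were called in resting and 10% in active cells. Il23r, the partner of Il12rb1 in the interleukin-23 receptor, was 2.78 ± 0.22 CPM in active GFP Treg cells and 41.5 ± 5.90 in active minusFoxp3 cells (−3.88 ± 0.33, adjusted p = 8.89e-07). Id2 was 171 ± 45.1 against 920 ± 181 CPM and Zeb2 2.55 ± 1.28 against 38.7 ± 16.4, both lower. Il18, which encodes the ligand of Il18r1, was higher, at 4.92 ± 2.21 against 0.262 ± 0.076 CPM (4.25 ± 0.61, adjusted p = 1.74e-04), where its receptor chain was lower. In resting cells Gzmb and Havcr2 had no count in the minusFoxp3 libraries of day 0 and 21.8 ± 9.23 and 2.61 ± 0.88 CPM in GFP Treg cells, and Klrg1 was 29.7 ± 5.69 against 0.371 ± 0.525 CPM. The Havcr2 call was lost without any 1 library (adjusted p from 0.0924 to 0.247), the Klrg1 call without minusFoxp3 library 2 or either GFP Treg library (0.0718 to 0.122), and the Gzmb call without minusFoxp3 library 1 (0.0578). Runx3 was higher in resting GFP Treg cells (54.1 ± 1.14 against 29.6 ± 0.806 CPM, 0.88 ± 0.22, adjusted p = 0.0348). Against plusFoxp3 cells of day 28, active GFP Treg cells gave 0 of 45 higher and 8 lower, Il23r among them (−3.23 ± 0.33, adjusted p = 2.17e-05). Of all genes, 2.01% were called there.

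Between active and resting minusFoxp3 cells of day 0, 14 of 45 pathway genes were higher in active cells and 4 lower, against 13.4% of all genes called. Ccr2 was 578 ± 32.3 against 3.42 ± 1.17 CPM, and Il23r 41.5 ± 5.90 against 0.971 ± 0.061, both higher in active cells. Gzmb (85.3 CPM on average) and Havcr2 (48.7 CPM on average) had no count in the resting libraries. Lta, the lymphotoxin-alpha gene, was lower in active cells, at 62.6 ± 12.7 against 164 ± 17.4 CPM (−1.39 ± 0.22, adjusted p = 6.03e-05).

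Likeness to other genes was measured as Pearson's r of group means of log2 CPM over the 11 active groups of the reversible-allele experiment, for the 12408 genes averaging 100 counts or more. These values are descriptions, since groups share libraries' depth and a common time course. The nearest genes were also picked from many over only 11 group means, so high values of r can arise by selection. Among the members, Tbx21 and Cxcr3 were alike (r = 0.896), as were Il18r1 and Il18rap (0.860), and Cxcr3 and Il18r1 ran opposite (−0.844). Ifng was close to neither Tbx21 (−0.074) nor Cxcr3 (−0.349). The genes most like Il18r1 were Epdr1 (0.994) and the T cell receptor gamma segments Trgv4 (0.993) and Trgj1 (0.992). Trdc, the one gamma-delta T cell marker measured, was 1.94 to 8.49 CPM in active minusFoxp3 and 6.21 and 6.74 in active GFP Treg libraries. The genes most like Cxcr3 were Gm6637 (0.989), Pglyrp1 (0.988) and Sytl1 (0.985), and those most like Tbx21 were Ifitm2 (0.977), Slamf7 (0.950) and Zfp821 (0.945). For Ifng they were Fcer1g (0.900), one of the NK cell and ILC1 markers, Mctp2 (0.875) and Mdc1 (0.866). Il18rap was nearest to Gm36723 (0.946), Mllt11 (0.941) and Cxcr6 (0.915), and Il12rb1 to Lrrc57 (0.962), Gpr155 (0.949) and Sema4b (0.948). Stat4 was nearest to Erlin2 (0.933), Scrn3 (0.926) and Exo5 (0.912), Eomes to Slc8b1 (0.916), Gm21011 (0.901) and Usp20 (0.900), and Il12rb2 to Vamp2 (0.898), Ccdc163 (0.890) and Gm45606 (0.884). Eomes and Il12rb2 themselves averaged fewer than 100 counts, and Eomes was close to the detection limit in active cells. Their nearest genes are therefore the least certain.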

How the data were processed

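RNA of sorted mouse Treg cells was amplified with SMART-Seq v4 and sequenced. Per the file headers, the deposited values are whole read counts per gene made by the authors with featureCounts 2.0.3 over GENCODE gene models of mm39, without strand, and with a minimum mapping quality of 30 and primary alignments only in the 20 degron files. The 44 reversible-allele files were counted without that filter, so levels were not compared across experiments. The aligner is STAR in the study's methods and Bowtie2 in the submitters' processing notes.

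Each of the 12 adult degron files names in its header a library of the other genotype than the sample it is attached to. The header was followed, with the attachment as an alternative. The infant groups carry the genotype in their titles. Totals per library were 27753211 to 57419138 counts. Genes averaging 10 counts or more over the libraries of a fit were tested with edgeR 4.0.16 (R 4.3.3), using TMM scaling and robust quasi-likelihood tests, with separate fits for thymic, active and infant degron libraries and for resting and active reversible-allele libraries, and joint fits where tissues or states were compared, with Benjamini-Hochberg adjustment over all genes tested. SE is the log2 fold change divided by the square root of F, and intervals are normal at 95%. Alternatives were RLE scaling, no count filter, DESeq2 1.42.0, the replicate number as a block, a fit of only the libraries compared, and each library left out in turn. The scripts were tested on simulated data.

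The members and lists were chosen with earlier results of these data known. Named were the 9 members, Foxp3, up to 3 called pathway genes per direction and comparison with the largest fold change, Il23r, Runx3, Ccl5 and Gzmk, and the 3 genes most like each member. Other pathway genes named (Ebi3, Ifngr1, Gzmb in active cells at day 28) were chosen after their values were seen. Of the gamma-delta markers only Trdc was found by name. No pair of libraries in a group was a duplicate: over 46 pairs, chi-square per gene was 17.3 to 191. Floors and intervals of counts cover counting error only.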

Additional observations from a re-analysis of the deposited data

Results flagged for a closer look

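In the infant libraries titled WT, library 4 held 16.13 CPM of Eomes, against 1.94 to 3.96 CPM in the other 3, a gap that was 0.858 of the range of the group and exceeded Dixon's 95% limit for 4 samples. Of the 18 groups of 4 tested, 1 exceeded the limit, and chance gives about 1 in 20. Il12rb1 differed between states in the GFP Treg contrast with minusFoxp3 cells of day 0, with a difference of −1.549 on the log2 scale, active minus resting (edgeR adjusted p = 0.0187). At day 14, both resting plusFoxp3 libraries held more Ifng than the minusFoxp3 pair and both active ones less, and the effects differed by −2.300 on the log2 scale. The same held for Il18rap at day 7, with −1.515. Neither of these last differences was tested.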

How the results depend on the processing

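No called result changed direction under the alternatives, other than by the exchange of group names described last. With RLE scaling, the number of members called was unchanged in every comparison, and all 56 single-gene results kept their side of the threshold. Without a count filter, members called were 1 in infants (0 with it), in resting cells 1 at day 0, 2 at day 3, 3 at days 7 and 14 and 4 at day 28, in active cells 1 at day 0, 2 at day 3 and 3 at day 14, 5 in active GFP Treg against day 0 minusFoxp3 cells, 1 in resting GFP Treg against day 28 plusFoxp3 cells, 1 in resting minusFoxp3 cells of day 28 against day 0, 1 and 3 for the day 28 minus day 3 effect in resting and active cells, 4 for the active minus resting GFP Treg effect, and 7 between active and resting GFP Treg cells. With DESeq2, 4 were called in infants, 1 in resting cells at day 3 and day 7, 2 at day 14 and day 28, 2 in active cells at day 14 and 1 for the active day 28 minus day 3 effect. With only the libraries compared in the fit, 1 was called in resting cells at day 3 and 0 at day 28, in active cells 0 at day 7, 3 at day 14 and 0 at day 28, 1 in active GFP Treg against day 28 plusFoxp3 cells and 0 for the active minus resting GFP Treg effect, and 18 single-gene results lost their call while 32 kept it. Such a fit has fewer samples from which to estimate the spread. Without the 5 libraries with the higher NK cell and ILC1 sums, chosen after seeing the data, 0 were called in active cells at day 14. The cause of the other shifts was not tested. The share of all genes called also moved with the setting, so these counts are not by themselves results about the members.

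Leaving out 1 library at a time gave 0 to 6 members called in infants (6 without titled WT library 4), 0 to 2 in resting cells at day 0, 0 to 1 at day 14 (Il12rb1, without plusFoxp3 library 2), 0 to 0 at day 28, 1 to 3 for resting GFP Treg cells, 0 to 3 in active cells at day 7 (3 without minusFoxp3 library 2, Ifng added), 0 to 1 at day 14, 1 to 2 at day 28, 2 to 3 and 1 to 3 for active GFP Treg cells against days 0 and 28, 0 to 2 for the active minus resting GFP Treg effect (2 without resting minusFoxp3 library 2, Il18rap added), 0 to 2 and 4 to 5 between active and resting GFP Treg and minusFoxp3 cells, and 6 to 7 between active and thymic cells (7 without active WT library 3, Eomes added). The other 13 comparisons gave 0 throughout. Over all single-gene results of this kind, 77 lost their call and 163 kept it. Here too the share of all genes called moved with the library left out. Where a group is left with 1 library, that library is taken to vary like the others.

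Same-numbered libraries did not consistently deviate together (r from −0.269 to 0.181 in the 4 comparisons with 3 or more pairs, and from −0.178 to 0.419 in the 18 with 2). The highest r, 0.419, was between active and resting minusFoxp3 cells of day 0, and the same contrast in GFP Treg cells gave 0.349. Whether same-numbered libraries share a mouse or a batch was not tested. With the replicate number as a block, members called stayed at 0 in the thymic, active and infant degron comparisons and at 3 in active cells at day 28, and fell from 3 to 2 in active GFP Treg against day 28 plusFoxp3 cells (Il18rap, −1.88, adjusted p = 0.0553). Assigning the adult degron files by the sample they are attached to exchanges WT and TIR1, so signs turn, and left 0, 0, 0 and 6 members called. With 2 libraries in most groups, a difference that was not called may still be present.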
